A study of Homo sapiens with 6 samples.

Results

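The set described here holds 36 genes of glucose breakdown and of the response to low oxygen. They comprise 17 enzymes that carry glucose to lactate, 2 enzymes that set the pace of glycolysis, 4 carriers of glucose or lactate, the transcription factor gene HIF1A and 12 genes known as targets of hypoxia-inducible factor (HIF). Members were picked by name, and each was taken from the table of raw counts by its Ensembl gene ID. All 36 were present among 60107 gene IDs, and all 36 were among the 22613 genes with enough counts to be tested.

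RNA was taken when day 9 ended in a 10-day protocol that directs cells of H9, a human embryonic stem line in wide use, toward nephron progenitor cells, the cells from which the filtering units of the kidney form. One group had complete media, with glutamine, and the other had no glutamine from day 0. Each group had 3 stranded mRNA libraries, numbered 1 to 3 in the labels, with 78220507 to 84746566 counts per library. Nothing in the labels says that the libraries of a group came from separate cultures, so p-values measure the spread between these libraries, which may be technical. All values come from 1 cell line.

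Glycolysis splits glucose into pyruvate in the cytosol and yields ATP without oxygen. Lactate dehydrogenase turns pyruvate into lactate and restores the NAD+ that the pathway consumes. HIF is a pair of proteins whose alpha subunit is destroyed while oxygen is plentiful. When oxygen is short it accumulates and switches on glucose carriers, most glycolytic enzymes and genes of vessel growth, mitophagy and pH control. In the developing kidney, glycolysis is known to be active in nephron progenitors and to recede as they differentiate. Several HIF targets, among them DDIT4, STC2, VLDLR and VEGFA, are also known targets of ATF4, the factor that responds to amino acid shortage.

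Replicate 1 with glutamine stood apart from its group. Over all genes tested, its log2 CPM, counts scaled for library depth, had an r of 0.9758 and 0.9762 against replicates 2 and 3 and of 0.9908 to 0.9927 against the libraries without glutamine. Markers of nephron progenitors and intermediate mesoderm summed to 1702 CPM in it, 1055 and 985 CPM in replicates 2 and 3, and 1639 to 2143 CPM without glutamine. All 14 of these markers were tested. Of the defining ones, SIX2 was at 6.57, 34.8 and 27.9 CPM with glutamine and at 7.27 to 9.70 CPM without. The 6 pluripotency markers summed to 203, 156 and 140 CPM with glutamine and to 233 to 295 CPM without, mostly through DPPA4. The defining NANOG was at most at 0.0128 CPM in any library. SOX2 went the other way, with a log2 fold change of -0.35, without against with glutamine. The 10 markers of paraxial mesoderm summed to 182, 311 and 307 CPM with glutamine and to 176 to 261 CPM without. Of these PAX3 was at 20.8, 115 and 118 CPM with glutamine and at 12.4 to 22.4 CPM without. FOXC2 and UNCX went the other way, with log2 fold changes of 0.42 and 0.72, without against with glutamine. The 5 endothelial markers summed to 33.4, 94.0 and 80.2 CPM with and to 20.2 to 26.9 CPM without, mostly through KDR. The defining markers PECAM1 and CDH5 stayed at or below 1.14 and 1.77 CPM in every library. TEK went the other way, with a log2 fold change of 0.38. The 4 nephric duct markers summed to 80.9, 12.0 and 10.0 CPM with glutamine and to 99.0 to 137 CPM without, mostly through EMX2. GATA3 and WNT11 were also higher without glutamine. RET did not follow, at 7.92, 3.84 and 2.545 CPM with glutamine and at 3.61 to 4.11 CPM without. The 4 smooth muscle markers summed to 71.2 to 113 CPM with and 138 to 296 CPM without. The 5 endoderm markers summed to 41.1 to 48.9 CPM with and 73.6 to 86.8 CPM without, mostly through CXCR4. SOX17 and HHEX went the other way, with log2 fold changes of -1.6 and -2.2, at or below 0.794 and 1.485 CPM. GATA4, with a log2 fold change of 1.3, and FOXA2 stayed at or below 0.314 and 0.0509 CPM. The 6 neural markers summed to 440 to 482 CPM with and 438 to 579 CPM without. No marker was at 0 in all libraries. Calls below are given with and without replicate 1 with glutamine. In bulk RNA, fewer cells of a type and less RNA per cell cannot be told apart, and the part of cell composition in the values below was not tested.

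With all 6 libraries, no member differed between cells without and with glutamine at an adjusted p under 0.05 in edgeR's quasi-likelihood test. That is 0 of 36, where 0.00442% of all genes tested were called, a single gene, the cystine carrier gene SLC7A11. At an unadjusted p under 0.05 there were 9 members, or 25%, against 29.7% of all genes. At an adjusted p under 0.1 there were 2 members, PFKP and SLC16A1, both higher without glutamine, or 5.56%. Among all genes 14.5% passed that threshold and 7.3% passed it as higher. DESeq2 called 4 members at 0.05, or 11.1%, against 14.4% of the genes it adjusted over. These were PFKP and SLC16A1, higher, and DDIT4 and VLDLR, lower. The groups did not overlap for 5 members, or 13.9%, against 34.2% of all genes: HK1, PFKL, PFKP and SLC16A1 were higher and PFKM was lower without glutamine.

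Within the group with glutamine the members spread widely. Replicate 1 was the lowest of all 6 libraries for 18 of the 36 members, or 50%, where it was lowest for 14.5% of all genes tested. It was the highest for 1 member, NDRG1, or 2.78%, against 15.1%. For 30 members, or 83.3%, it lay nearer the mean without glutamine than the mean of replicates 2 and 3, against 62.1% of all genes. For 20 members, or 55.6%, replicates 2 and 3 were both above all 3 libraries without glutamine, against 31.2%. For 12 members, or 33.3%, that order held and replicate 1 was the lowest of the 6, an order that 4.48% of all genes had. Across members the level in replicate 1 ran from 0.293 times the mean of replicates 2 and 3 for SLC2A3 to 1.80 times for PFKP.

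**Figure D1:**
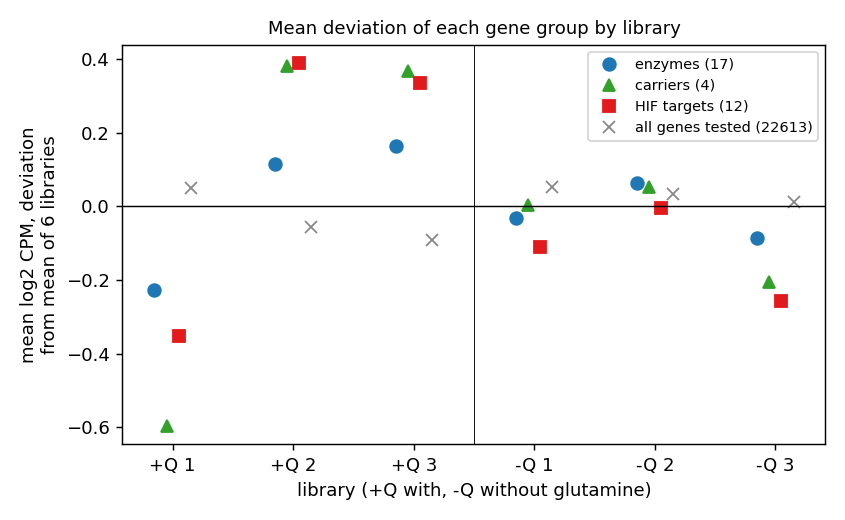
Mean deviation of log2 CPM from the mean of the 6 libraries (y axis) in each library (x axis), for the 17 enzymes, 4 carriers, 12 HIF targets and all 22613 genes tested. Replicate 1 with glutamine has the lowest mean in all 3 member groups, and replicates 2 and 3 have the highest means for the carriers, the HIF targets and the enzymes.

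**Figure D2:**
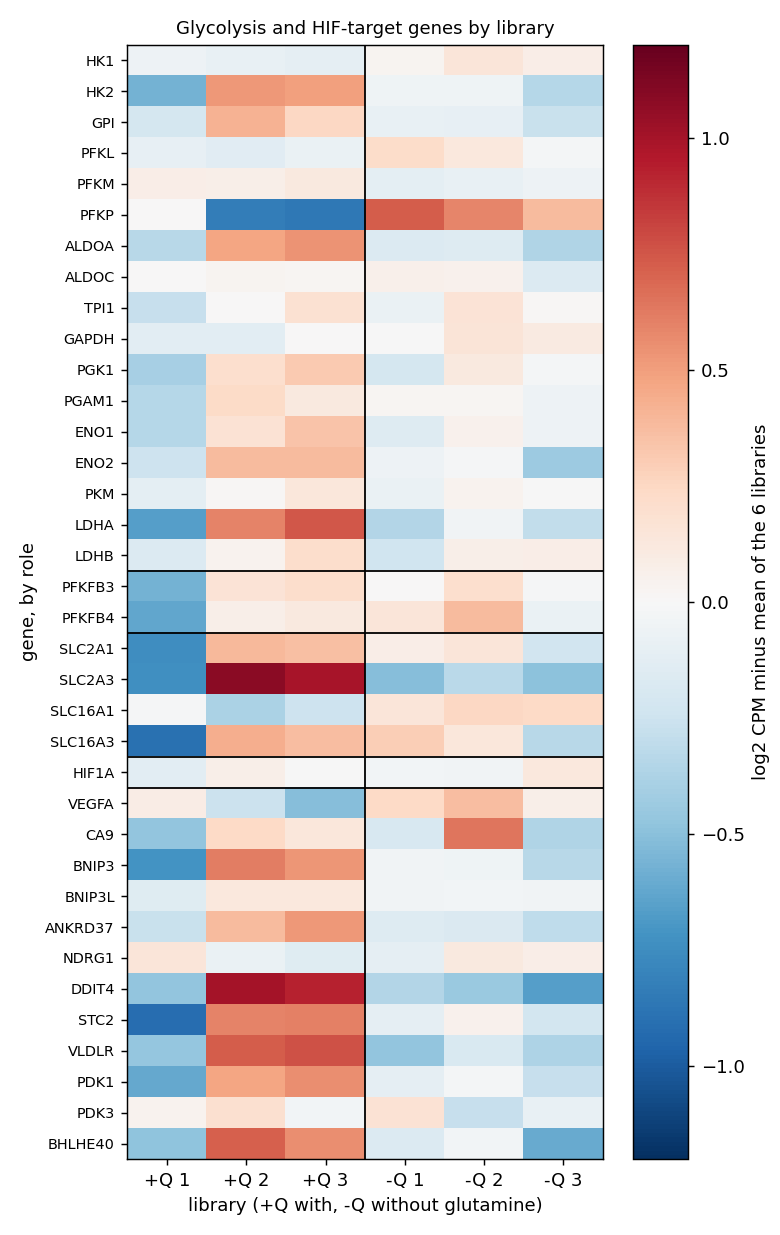
Log2 CPM of each of the 36 members (rows, ordered by role, lines between roles) minus its mean over the 6 libraries (columns). Blue in replicate 1 with glutamine beside red in replicates 2 and 3 marks SLC2A3, SLC2A1, LDHA, BNIP3, PDK1, STC2, DDIT4 and VLDLR, while PFKP shows red in the 3 libraries without glutamine.

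The glucose carriers showed this pattern. SLC2A1 and SLC2A3 encode GLUT1 and GLUT3, which let glucose into the cell. With glutamine SLC2A3 stood at 40.8, 144 and 135 CPM in replicates 1, 2 and 3, the order used throughout, and without it at 47.7, 54.3 and 48.2 CPM. Replicates 2 and 3 were thus far above the other 4 libraries, and the groups overlapped through replicate 1. Its log2 fold change, without against with glutamine, was -1.09 (edgeR adjusted p 0.141, SE 0.417), and -1.48 (adjusted p 8.15e-07, SE 0.078) without replicate 1. SLC2A1 was at 119, 260 and 256 CPM with glutamine and at 210, 221 and 169 CPM without. The libraries without glutamine lay between replicate 1 and the other libraries with it, and the log2 fold change was -0.08 (edgeR adjusted p 0.869, SE 0.283). Without replicate 1 it was -0.36 (adjusted p 0.0191).

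Of the lactate carriers, SLC16A1 had higher values without glutamine and SLC16A3 showed no clear direction. The difference between them was not tested. SLC16A1 encodes MCT1, a carrier of lactate and pyruvate that works in both directions, and SLC16A3 encodes MCT4, which is best known for lactate export. SLC16A1 was at 476, 370 and 404 CPM with glutamine and at 532, 571 and 566 CPM without. The groups did not overlap, with a log2 fold change of 0.42 (edgeR adjusted p 0.0742, SE 0.102, DESeq2 adjusted p 0.0124). Without replicate 1 with glutamine it rose by 0.53 (adjusted p 0.000319, SE 0.071). SLC16A3 was at 18.6, 46.9 and 44.7 CPM with glutamine and at 42.6, 38.0 and 27.5 CPM without, so replicate 1 held less of it than any other library. Its log2 fold change was -0.03 (SE 0.34) with all libraries and -0.34 (adjusted p 0.0944) without replicate 1. Exons of SLC16A3 overlap those of CSNK1D on the opposite strand over 5.4% of their length, and CSNK1D had 74616 counts in the 6 libraries against 17488 for SLC16A3.

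Of the hexokinases, which trap glucose as glucose 6-phosphate, HK2 carried the pattern and HK1 did not. The difference between them was not tested. HK1, the form found in most tissues, was at 147, 144 and 142 CPM with glutamine and at 156, 169 and 162 CPM without. Its groups did not overlap, and its log2 fold change was 0.17 (edgeR adjusted p 0.133, SE 0.063), or 0.19 (adjusted p 0.0469) without replicate 1. HK2, a known HIF target, was at 114, 243 and 238 CPM with glutamine and at 163, 164 and 133 CPM without. It was again lowest in replicate 1 and highest in replicates 2 and 3, and its log2 fold change went from -0.37 (edgeR adjusted p 0.383, SE 0.271) to -0.64 (adjusted p 0.000458) when replicate 1 was left out. GPI, the isomerase of the next step, was at 157, 241 and 215 CPM with glutamine and at 171, 169 and 151 CPM without, a log2 fold change of -0.32 (edgeR adjusted p 0.206), or -0.48 (adjusted p 0.00128) without replicate 1.

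Phosphofructokinase, the committed step of glycolysis, has a liver form (PFKL), a muscle form (PFKM) and a platelet form (PFKP). PFKP was at 32.7, 18.4 and 18.0 CPM with glutamine and at 54.2, 49.1 and 42.5 CPM without. The groups did not overlap, and replicate 1 lay between the others of its group and the libraries without glutamine. The means were 23.1 ± 8.38 CPM with and 48.6 ± 5.87 CPM without (SD, n = 3). The log2 fold change was 1.08 (edgeR adjusted p 0.0706, SE 0.24, DESeq2 adjusted p 0.000162). Without replicate 1 it rose by 1.42 (adjusted p 7.78e-06, SE 0.107). PFKL was at 101 to 105 CPM with glutamine and at 109 to 129 CPM without, a log2 fold change of 0.21 (edgeR adjusted p 0.135, SE 0.079). PFKM was at 183 to 189 CPM with it and at 160 to 166 CPM without, a log2 fold change of -0.18 (edgeR adjusted p 0.108, SE 0.059). For PFKL and PFKM replicate 1 stayed with its own group, at 104 and 183 CPM.

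PFKFB3 and PFKFB4 make and break down fructose 2,6-bisphosphate, which activates phosphofructokinase. PFKFB3 was at 75.7, 126 and 130 CPM with glutamine and at 113, 129 and 111 CPM without. PFKFB4 was at 52.8, 85.4 and 88.5 CPM with it and at 90.1, 106 and 77.1 CPM without. Both were lowest in replicate 1, and apart from that library the groups overlapped. Their log2 fold changes were 0.09 (SE 0.198) and 0.27 (SE 0.208), with edgeR adjusted p of 0.784 and 0.408, and neither was called without replicate 1 (edgeR adjusted p 0.266 and 0.667).

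Among the aldolases, which split the 6-carbon sugar, ALDOA carried the pattern and ALDOC did not. ALDOA was at 517, 904 and 946 CPM with glutamine and at 580, 584 and 506 CPM without, a log2 fold change of -0.50 (edgeR adjusted p 0.172, SE 0.216), or -0.73 (adjusted p 7.89e-05) without replicate 1. ALDOC was at 23.0, 23.4 and 23.3 CPM with it and at 24.0, 23.8 and 20.4 CPM without. The 3 libraries with glutamine were close to each other for ALDOC, and its log2 fold change was -0.03 (SE 0.09). The difference between ALDOA and ALDOC was not tested. Exons of ALDOA share 42.3% of their length with another annotated gene on the same strand, which had 0 counts in the table.

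TPI1, GAPDH, PGK1 and PGAM1 act between the triose phosphates and the enolase step. TPI1, the isomerase, ran from 254.7 to 350 CPM with glutamine and from 293 to 346 CPM without. GAPDH, the dehydrogenase of the next step, was at 981, 980 and 1077 CPM with it and at 1070, 1196 and 1154 CPM without, a log2 fold change of 0.17 (edgeR adjusted p 0.187, SE 0.077). Replicates 1 and 2 with glutamine were level and below the other 4 libraries. PGK1, the first ATP-yielding kinase of the path, was at 442, 667 and 722 CPM with glutamine and at 504, 630 and 573 CPM without, with replicate 1 the lowest library. Its log2 fold change of -0.10 (edgeR adjusted p 0.738, SE 0.184) became -0.28 (adjusted p 0.035) without replicate 1. PGAM1, the phosphoglycerate mutase, was at 15.5 to 23.2 CPM with it and at 18.9 to 20.0 CPM without.

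ENO1 and ENO2 are the ubiquitous and the neuronal enolase. ENO1 was at 1658, 2379 and 2663 CPM with glutamine and at 1892, 2179 and 2023 CPM without. Replicate 1 was again the lowest, the log2 fold change was -0.14 (edgeR adjusted p 0.607, SE 0.169), and it was -0.31 (adjusted p 0.0147) without replicate 1. ENO2 was at 44.8, 69.0 and 69.0 CPM with it and at 50.7, 52.4 and 39.3 CPM without, a log2 fold change of -0.36 (edgeR adjusted p 0.242), or -0.54 (adjusted p 0.00418) without replicate 1. PKM, the pyruvate kinase of most growing cells, was at 1047, 1148 and 1249 CPM with it and at 1072, 1168 and 1132 CPM without. Its groups overlapped fully, with a log2 fold change of -0.03 (SE 0.086).

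Lactate dehydrogenase is built from A chains, favoured in glycolytic tissue, and B chains, favoured in oxidative tissue. LDHA was at 392, 938 and 1036 CPM with glutamine and at 486, 603 and 506 CPM without. Replicate 1 held the least LDHA of any library, at 0.397 times the mean of replicates 2 and 3 and 0.738 times the mean without glutamine. Its log2 fold change was -0.57 (edgeR adjusted p 0.275, SE 0.327), and -0.89 (adjusted p 8.15e-05, SE 0.096) without replicate 1. LDHB was at 1329, 1529 and 1725 CPM with it and at 1259, 1566 and 1567 CPM without, so the groups overlapped throughout. Its log2 fold change was -0.06 (SE 0.128).

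Levels of isoenzymes were compared per kilobase of annotated exon. In 9 of 10 families the same gene was the highest in all 6 libraries. LDHB was above LDHA, at 512 ± 66.4 against 127 ± 55.9 CPM per kb with glutamine and 491 ± 59.5 against 85.6 ± 10.1 CPM per kb without (SD, n = 3). The LDHA share of that pair was 12.4% in replicate 1, 22.8% and 22.4% in replicates 2 and 3, and 13.4% to 15.6% without glutamine. PFKM was the leading phosphofructokinase. The PFKP share was 15.6%, 9.48% and 9.02% with glutamine and 20.1% to 23.6% without, so the groups were apart. The hexokinases had no constant order. The HK2 share was 44.6%, 63.7% and 63.5% with glutamine and 46.1% to 52.1% without, and HK2 led in 4 libraries and HK1 in 2. With the longest transcript as the length HK1 led in 4 libraries, so no order of the pair is claimed. SLC2A1 was above SLC2A3, SLC16A1 above SLC16A3, ALDOA above ALDOC, ENO1 above ENO2, BNIP3L above BNIP3 and PDK1 above PDK3 in every library under both lengths. PFKFB3 led PFKFB4 in all 6 libraries under the union of exons and in 4 under the longest transcript.

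**Figure D3:**
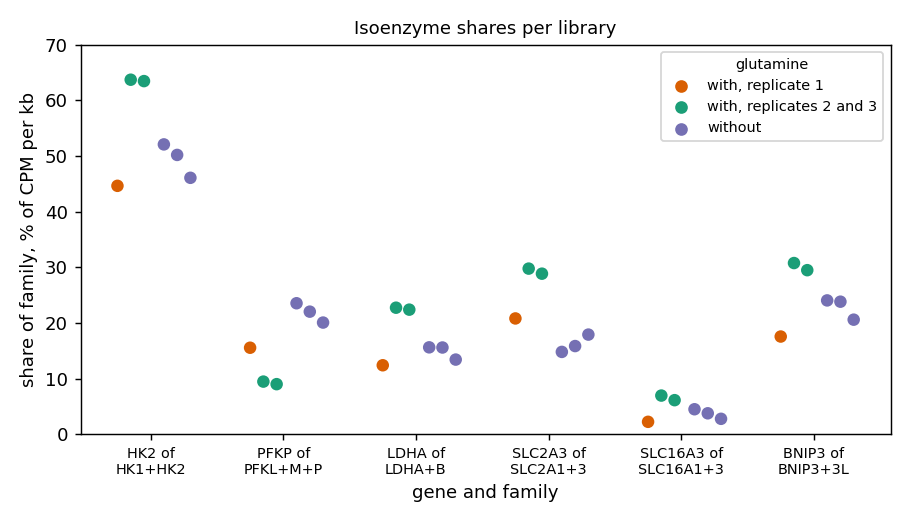
Share of each gene in its family (y axis, percent of summed CPM per kb of exon) for 6 genes (x axis), 1 point per library. Replicate 1 with glutamine (orange) is below replicates 2 and 3 (green) for every gene but PFKP, where it lies between them and the libraries without glutamine (purple).

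HIF1A, the oxygen-controlled subunit itself, did not differ detectably. It was at 202, 232 and 219 CPM with glutamine and at 215, 214 and 241 CPM without. Its groups overlapped, its log2 fold change was 0.04 (edgeR adjusted p 0.778, SE 0.083), and its sign turned to -0.01 without replicate 1 and under upper quartile scaling. HIF1A protein is controlled mainly after transcription, so the transcript level is no measure of HIF activity.

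The 12 HIF targets had a median log2 fold change of -0.35, against -0.06 for the 17 enzymes and 0.00 for all genes tested. Without replicate 1 with glutamine the medians were -0.65, -0.18 and 0.01. For the 9 HIF targets other than DDIT4, STC2 and VLDLR the median was -0.12, and -0.16 without replicate 1. Taking 3 low genes from a list of 12 moves its median, so this does not show that the lower values rest on them. Of the other 9, 6 had a log2 fold change below 0 and 3 above. BHLHE40, ANKRD37, BNIP3 and PDK1, at -0.60, -0.46, -0.39 and -0.36, were lower than STC2 at -0.33. DDIT4, VLDLR and STC2 were set against the enzymes in each library. DDIT4 encodes REDD1, an inhibitor of mTORC1 signalling, VLDLR a lipoprotein and reelin receptor, and STC2 a secreted glycoprotein of stress responses.

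The promoters of DDIT4 and VLDLR are shown with those of BNIP3, another HIF target, and of the enzymes PGK1 and PFKL. They are examples of genes with and without the drop in replicate 1. Each is the part of the 250 bases before the RefSeq start that lies outside annotated exons, read 5′ to 3′ on the gene's strand from GRCh38.p14. Capitals mark the core of the hypoxia response element, ACGTG or GCGTG, on either strand, where it reads CACGT or CACGC on the opposite strand. The windows are chr10:72273674-72273919 (+) for DDIT4, chr9:2621537-2621786 (+) for VLDLR, chr10:131982014-131982173 (-) for BNIP3, chrX:78103998-78104173 (+) for PGK1 and chr21:44299803-44300050 (+) for PFKL.
DDIT4: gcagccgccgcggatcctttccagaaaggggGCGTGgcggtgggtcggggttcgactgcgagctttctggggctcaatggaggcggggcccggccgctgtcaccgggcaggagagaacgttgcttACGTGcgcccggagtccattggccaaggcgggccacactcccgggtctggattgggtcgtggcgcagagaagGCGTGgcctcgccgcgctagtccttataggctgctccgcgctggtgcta
VLDLR: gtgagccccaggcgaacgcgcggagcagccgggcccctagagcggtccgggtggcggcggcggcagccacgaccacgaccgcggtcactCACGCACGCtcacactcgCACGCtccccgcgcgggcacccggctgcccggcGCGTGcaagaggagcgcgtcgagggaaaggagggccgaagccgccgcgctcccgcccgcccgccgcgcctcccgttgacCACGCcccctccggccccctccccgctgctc
BNIP3: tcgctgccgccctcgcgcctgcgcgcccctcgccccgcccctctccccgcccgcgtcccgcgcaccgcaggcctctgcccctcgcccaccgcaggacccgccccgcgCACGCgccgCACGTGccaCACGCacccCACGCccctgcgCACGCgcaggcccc
PGK1: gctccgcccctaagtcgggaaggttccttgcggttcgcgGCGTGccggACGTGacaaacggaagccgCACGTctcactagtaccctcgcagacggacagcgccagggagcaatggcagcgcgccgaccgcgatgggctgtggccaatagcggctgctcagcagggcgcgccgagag
PFKL: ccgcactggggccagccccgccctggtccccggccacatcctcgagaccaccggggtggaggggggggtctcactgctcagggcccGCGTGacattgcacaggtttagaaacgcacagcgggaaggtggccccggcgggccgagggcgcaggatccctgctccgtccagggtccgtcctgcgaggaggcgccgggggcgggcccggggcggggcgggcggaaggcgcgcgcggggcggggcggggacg
DDIT4 held 3 cores, VLDLR 5, BNIP3 6 with an overlapping pair on opposite strands, PGK1 3 and PFKL 1. Core number did not follow the drop in all members. SLC2A1, with replicate 1 at 0.46 times the mean of replicates 2 and 3, held 0 cores. ALDOC and PDK3, at 0.98 and 0.97 times, held 5 and 2. LDHA, at 0.40 times, held 5 and 1 in its windows. The relation was not tested. Of the 250-base windows of all RefSeq promoters, 43.2% held such a core, so a match is common. Among members, 31 had a window in the table, and 27 of these had a core in at least 1 of their windows, or 87.1%, against 47.4% of all genes. That share grows with the number of windows per gene, and members had 58 windows for 31 genes. Window by window the share was 60.3% for members and 51.4% for enzymes. All 9 HIF targets with a window and 14 of 17 enzymes did. GC content of the full 250-base windows was 68.8% for DDIT4, 78.8% for VLDLR and 81.6% for BNIP3. The 8-letter amino acid response element TGATGNAA, searched on both strands, was in 3.14% of all windows. Among members it was in 2 of 58 windows, or 3.45%, both of HK1. None of the 10 windows of HIF targets held it, too few windows to read an absence at that share. VEGFA had no window. A match is a description of letters and says nothing of binding in these cells.

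DDIT4 was at 49.4, 137 and 130 CPM with glutamine and at 54.0, 50.5 and 43.5 CPM without. Replicate 1 sat inside the range without glutamine. The log2 fold change was -1.1 (edgeR adjusted p 0.104, SE 0.352, DESeq2 adjusted p 0.00622), and -1.44 (adjusted p 2.66e-06, SE 0.091) without replicate 1. VLDLR was at 30.4, 69.7 and 71.5 CPM with glutamine and at 30.2, 37.1 and 32.6 CPM without. It had the same layout, with a log2 fold change of -0.78 (edgeR adjusted p 0.144, SE 0.302, DESeq2 adjusted p 0.0388), or -1.08 (adjusted p 1.43e-05) without replicate 1. STC2 was at 39.9, 113 and 114 CPM with it and at 69.9, 77.8 and 64.5 CPM without. Here replicate 1 lay below all 3 libraries without glutamine, at 0.564 times their mean, and the log2 fold change was -0.33 (edgeR adjusted p 0.552, SE 0.359), or -0.68 (adjusted p 0.000177) without replicate 1.

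BNIP3 and BNIP3L encode receptors that mark mitochondria for mitophagy. BNIP3 was at 74.5, 187 and 176 CPM with glutamine and at 119, 118 and 97.4 CPM without, a log2 fold change of -0.39 (edgeR adjusted p 0.426), or -0.70 (adjusted p 0.00026) without replicate 1. BNIP3L was at 283 to 341 CPM with it and at 303 to 305 CPM without. PDK1 and PDK3 are kinases that keep pyruvate out of the mitochondrial citrate cycle. PDK1 was at 88.6, 187 and 199 CPM with glutamine and at 125, 133 and 112 CPM without, a log2 fold change of -0.36 (edgeR adjusted p 0.405), or -0.65 (adjusted p 0.000219) without replicate 1. PDK3 was at 19.0 to 22.2 CPM with it and at 16.0 to 21.9 CPM without. BNIP3 and PDK1 thus shared the layout of LDHA, with replicate 1 lowest and the libraries without glutamine in the middle, and BNIP3L did so over a narrower range.

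BHLHE40, a clock-linked repressor, was at 15.7, 36.1 and 32.4 CPM with glutamine and at 19.6, 21.4 and 14.4 CPM without, a log2 fold change of -0.60 (edgeR adjusted p 0.226), or -0.89 (adjusted p 0.000896) without replicate 1. ANKRD37, a small ankyrin repeat protein, was at 1.21, 1.88 and 2.09 CPM with it and at 1.30, 1.29 and 1.17 CPM without, from 92 to 164 counts per library. Both were high only in replicates 2 and 3 among the 6 libraries. Exons of ANKRD37 overlap UFSP2 on the opposite strand over 35.2% of their length.

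A few targets went against this layout. VEGFA, the growth factor of blood vessels, was at 120, 94.96 and 79.3 CPM with glutamine and at 134, 147 and 119 CPM without. Its log2 fold change was 0.44 (edgeR adjusted p 0.126, SE 0.158, DESeq2 adjusted p 0.0567), and it rose by 0.61 (adjusted p 0.00142, SE 0.106) without replicate 1. NDRG1, a stress-induced protein, was at 17.5, 14.96 and 14.3 CPM with it and at 14.7, 17.2 and 16.7 CPM without, the 1 member for which replicate 1 was highest. CA9, the surface carbonic anhydrase often used to mark hypoxic cells, was barely detected, with 21 to 44 counts per library. It was at 0.259, 0.423 and 0.395 CPM with glutamine and at 0.314, 0.562 and 0.280 CPM without, and the groups overlapped. At that depth its log2 fold change of 0.10 had an SE of 0.346, and its exons overlap ARHGEF39 on the opposite strand over 38.5% of their length.

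**Figure D4:**
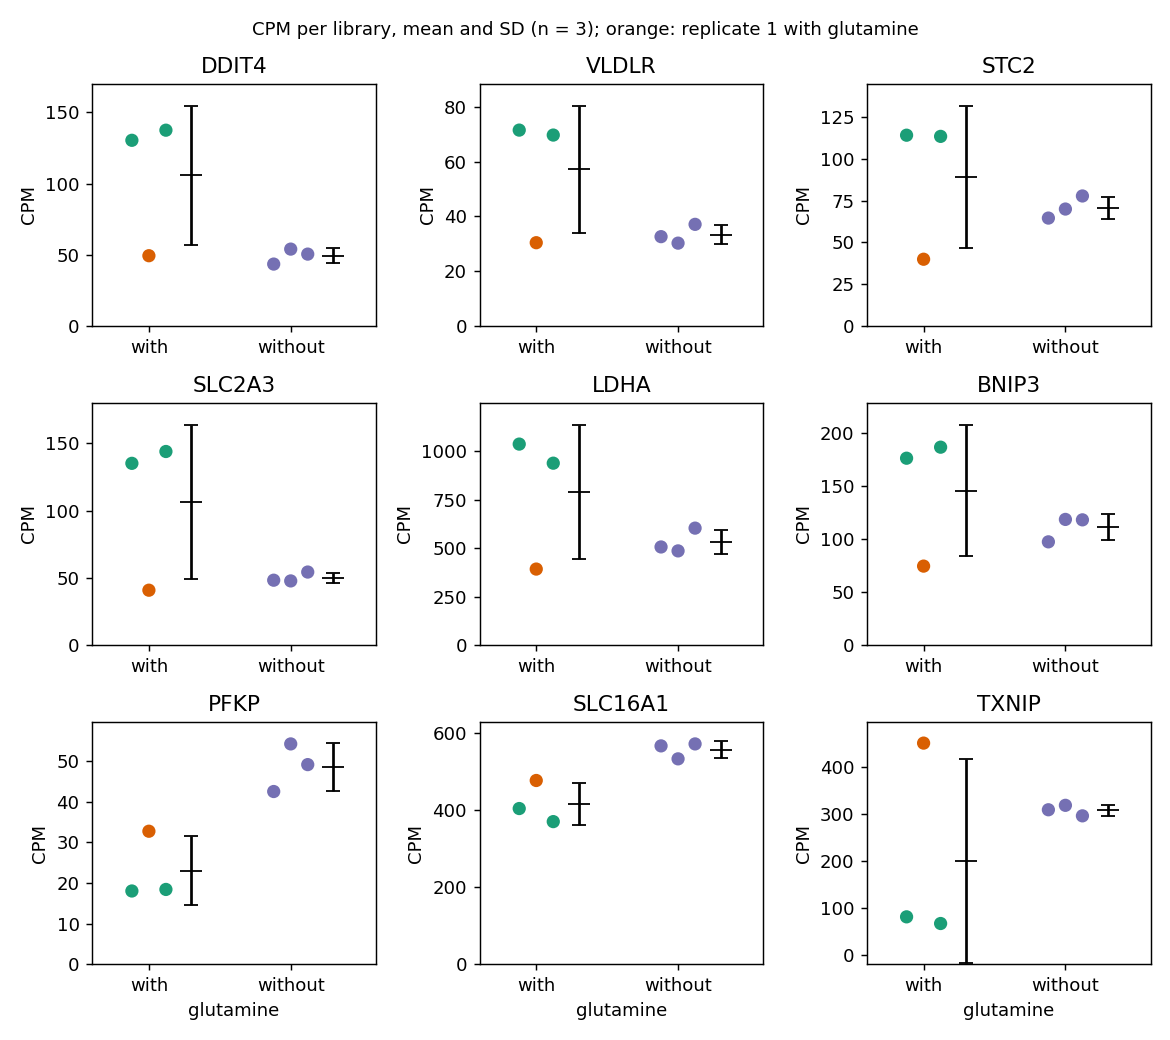
CPM per library (y axis, from 0, or below it for TXNIP where the SD bar passes 0) with and without glutamine for 9 genes, with the mean and SD of each group (n = 3). Orange points are replicate 1 with glutamine: it lies with or below the libraries without glutamine for DDIT4, VLDLR, STC2, SLC2A3, LDHA and BNIP3, between the other libraries of its group and those without glutamine for PFKP and SLC16A1, and above all others for TXNIP.

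Set side by side in each library, enzymes and HIF targets were both lowest in replicate 1 with glutamine and highest in replicates 2 and 3, over different ranges. The mean deviation of the enzymes from their 6-library mean was -0.23, 0.12 and 0.17 on the log2 scale in replicates 1, 2 and 3 with glutamine and -0.03, 0.06 and -0.09 without. That of the HIF targets was -0.35, 0.39 and 0.33 with and -0.11, -0.01 and -0.26 without. The carriers had -0.60, 0.38 and 0.37 with and 0.00, 0.05 and -0.21 without. For all genes tested the mean deviation stayed between -0.09 and 0.05. In summed CPM, the 12 HIF targets reached 740, 1204 and 1179 with glutamine and 892, 925 and 823 without, and the 17 enzymes 7441, 9901 and 10790 with and 8084, 9204 and 8614 without.

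The mean log2 CPM of the HIF targets minus that of the enzymes was -3.10, -2.70 and -2.81 in replicates 1, 2 and 3 with glutamine and -3.06, -3.05 and -3.15 without. Its absolute size depends on gene length, so only differences between libraries can be read. Replicate 1 lay inside the range of the libraries without glutamine, and replicates 2 and 3 lay above it. The group means were -2.87 ± 0.207 with and -3.08 ± 0.057 without (SD, n = 3), a difference of -0.21 without a test, and -0.33 without replicate 1. With DDIT4, STC2 and VLDLR left out of the targets it was -0.09.

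Leaving out replicate 1 with glutamine changed the calls. EdgeR then called 21 of 36 members, or 58.3%, against 41.3% of all genes tested. Of these 4 were higher without glutamine, or 11.1% against 22.3%, and 17 were lower, or 47.2% against 19%. By role, the calls were 2 higher and 8 lower of 17 enzymes, 1 higher and 2 lower of 4 carriers, 1 higher and 7 lower of 12 HIF targets, and neither PFKFB3, PFKFB4 nor HIF1A. The 4 higher genes were HK1, PFKP, SLC16A1 and VEGFA. The 15 members not called had log2 fold changes from -0.34 for SLC16A3 to 0.22 for PFKL in those 5 libraries. DESeq2 called 20 members in the same 5 libraries, 3 higher and 17 lower, or 55.6% against 33% of the genes it adjusted over. With 2 libraries left in the group with glutamine the spread of that group rests on 1 pair, so these calls describe replicates 2 and 3 against the libraries without glutamine.

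**Figure D5:**
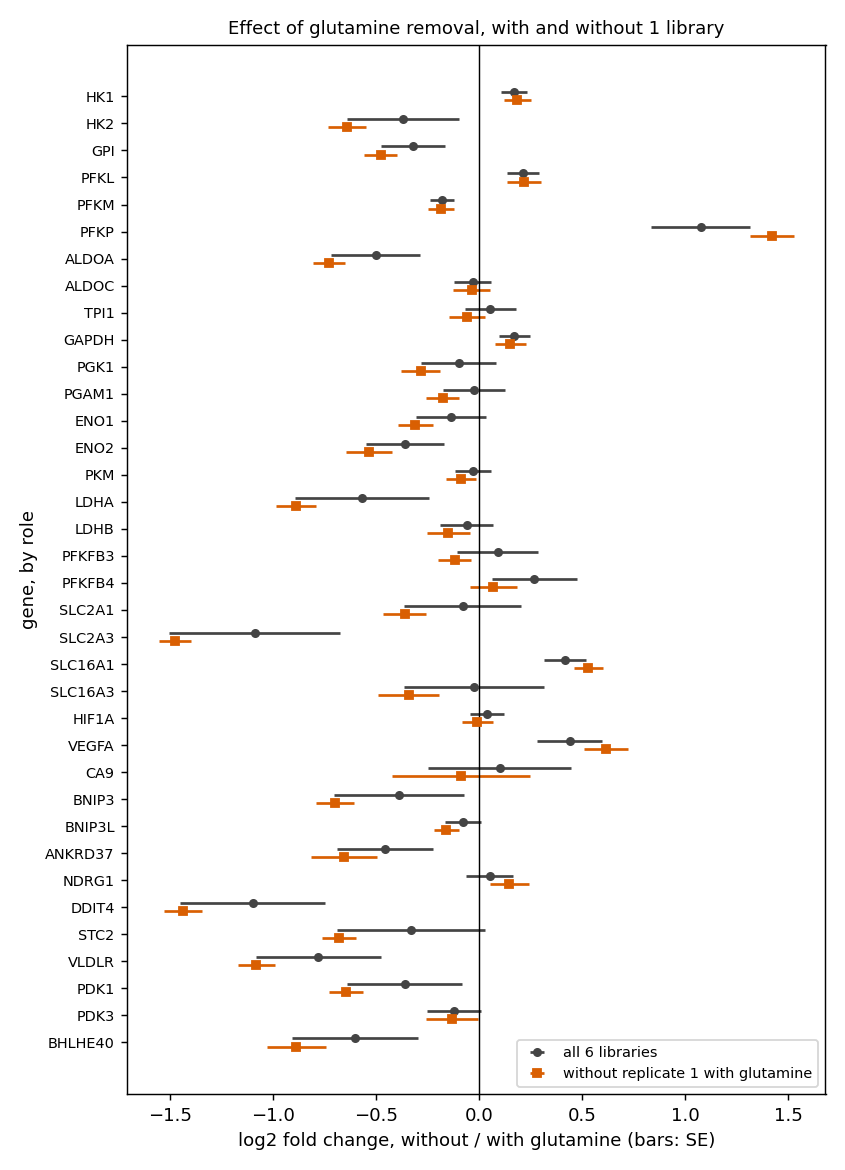
Log2 fold change, without against with glutamine (x axis), with its SE for each of the 36 members (y axis), from all 6 libraries (grey circles) and without replicate 1 with glutamine (orange squares). Standard errors of SLC2A3, DDIT4, LDHA and STC2 shrink when that library is left out, and PFKP and SLC16A1 stay to the right of 0 in both.

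Other genes of sugar metabolism were read from a list of 44, of which 34 had enough counts to be tested. With all libraries edgeR called 0 at an adjusted p under 0.05, with 11 at an unadjusted p under 0.05, against 29.7% of all genes. DESeq2 called 3 higher and 2 lower, where it called 14.4% of the genes it adjusted over. Without overlap 8 were higher and 5 lower, a share near the 34.2% of all genes, and the median log2 fold change was -0.03. Replicate 1 with glutamine was the lowest library for 6 and the highest for 7 of the 34, near the 14.5% and 15.1% of all genes. Among those without overlap, HKDC1, a hexokinase-like gene, was at 1.38, 0.0512 and 0.0382 CPM with glutamine and at 2.34, 2.64 and 2.19 CPM without. PCK2, the mitochondrial enzyme that makes phosphoenolpyruvate, was at 32.8 ± 4.47 CPM with and 50.1 ± 5.69 CPM without (SD, n = 3; log2 fold change 0.61, edgeR adjusted p 0.0694). Both were higher without glutamine, and for HKDC1 replicate 1 lay between replicates 2 and 3 and the libraries without glutamine. SLC2A6, a glucose carrier of lysosomes, had a log2 fold change of 0.47 (edgeR adjusted p 0.109).

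On the lower side, ENO3, the muscle enolase, was at 34.4, 155 and 169 CPM with glutamine and at 29.1, 28.0 and 23.9 CPM without (log2 fold change -2.15, edgeR adjusted p 0.0747). Replicates 2 and 3 were far above the other 4 libraries, as for SLC2A3. SLC2A4, the insulin-responsive GLUT4, FBP2, a fructose bisphosphatase of muscle, and SLC2A10, another glucose carrier, had log2 fold changes of -0.51, -0.46 and -0.24. SLC2A14, a close paralog of SLC2A3 that can share reads with it, was also named after its values were seen, and no library exceeded 0.781 CPM.

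TXNIP and ARRDC4, arrestin-like genes that are switched on when glucose metabolites build up and that restrain glucose uptake, were named after their values were seen. TXNIP was at 450, 67.6 and 81.7 CPM with glutamine and at 318, 296 and 309 CPM without. ARRDC4 was at 55.5, 14.6 and 15.9 CPM with it and at 45.3, 40.7 and 38.7 CPM without. Both ran opposite to SLC2A3 and LDHA, with replicate 1 highest, the libraries without glutamine next and replicates 2 and 3 lowest. Their log2 fold changes of 0.62 (SE 0.676) and 0.53 (SE 0.489) had edgeR adjusted p of 0.555 and 0.481, and they rose by 2.05 and 1.45 without replicate 1 (adjusted p 3.74e-07 and 3.08e-06).

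The rest of the HIF pathway was read from a list of 39 genes, all tested, with a median log2 fold change of -0.01. EdgeR called 0 at an adjusted p under 0.05, with 12 at an unadjusted p under 0.05, against 29.7% of all genes. DESeq2 called 4 higher and 3 lower, where it called 14.4% of the genes it adjusted over. Without overlap 8 were higher and 5 lower, near the 34.2% of all genes. ADM, the vasodilator adrenomedullin, was at 3.32, 3.12 and 3.42 CPM with glutamine and at 8.29, 12.8 and 10.4 CPM without (log2 fold change 1.67, SE 0.177, edgeR adjusted p 0.068). NDUFA4L2, a HIF-induced mitochondrial protein, was at 2.38 ± 0.757 CPM with and 4.95 ± 0.971 CPM without (log2 fold change 1.06). PLOD2, a lysyl hydroxylase of collagen, was at 224, 176 and 184 CPM with it and at 301, 317 and 285.4 CPM without (log2 fold change 0.63, edgeR adjusted p 0.068). These HIF-linked genes were higher without glutamine, as was CITED2, a HIF inhibitor, with a log2 fold change of 0.42. For ADM replicate 1 stayed with its own group.

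Lower without glutamine and without overlap were RORA, a nuclear receptor, at 46.6, 132 and 115 CPM with and 39.6 to 43.6 CPM without, and HMOX1, heme oxygenase, at 2.43, 3.52 and 3.31 CPM with and 1.097 to 1.56 CPM without. HIF3A and ARNT, a HIF alpha subunit and the common beta subunit, had log2 fold changes of -0.68 and -0.19. EPAS1, the HIF2 alpha subunit, was named after its values were seen, at 6.80, 0.346 and 0.267 CPM with glutamine and 5.97 to 7.53 CPM without. In 17 of the 39 genes replicate 1 was the lowest of the 6 libraries, and in 6 it was the highest, against 14.5% and 15.1% of all genes.

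The list of 28 amino acid response genes, 3 of which are the members DDIT4, STC2 and VLDLR, had 27 genes tested. Of these edgeR called 1 at an adjusted p under 0.05, SLC7A11, against 0.00442% of all genes. DESeq2 called 13 higher and 2 lower, where it called 14.4% of the genes it adjusted over. Without overlap 19 were higher and 0 lower, against 34.2% of all genes in both directions, and the median log2 fold change was 0.26. Replicate 1 with glutamine was the lowest library for 13 and the highest for 0 of the 27, against 14.5% and 15.1% of all genes. DDIT4, STC2 and VLDLR, at -1.1, -0.33 and -0.78, were among the 6 genes of that list with a fold change below 0. ATF4 itself, named after its values were seen, was at 159 ± 7.45 CPM with and 201 ± 17.2 CPM without (SD, n = 3; log2 fold change 0.33, edgeR adjusted p 0.0772).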

How the data were processed

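Raw read counts by Ensembl gene ID, 1 column per library, were deposited by the authors. They also deposited normalized counts, a signal equal to the raw count divided by 1 size factor per library, from 0.977 to 1.08. Per the submitters' processing notes, the tools were cutadapt, Trim Galore, FastQC, STAR 2.5.2b and DESeq2, on GRCh38. The counting program, annotation, strand setting and handling of multiply aligned reads are not given in the sources used here, so counts of overlapping genes and of genes with near-identical copies are uncertain. GENCODE 29 lists 62 pseudogenes of GAPDH, 39 of BNIP3 and 13 of PGAM1, which held counts equal to 1.67%, 1.99% and 1.95% of their parent's. Table headings name days 0 and 9, whereas all samples are from day 9. Columns were assigned by each sample's description, and every direction rests on that.

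Symbols, positions and exon lengths came from GENCODE 29, which matched 56531 of 60107 IDs. Raw counts were tested with edgeR 4.0.16 in R 4.3.3 (quasi-likelihood F test, legacy = FALSE, TMM, filterByExpr, 22613 genes holding 99.95% of counts), with Benjamini-Hochberg adjustment over all genes and a threshold of 0.05. DESeq2 1.42.0 and limma 3.58.1 gave alternatives. The SE is the absolute log2 fold change over the root of F. Values in CPM used TMM-scaled library sizes, and log2 CPM a prior count of 2. Without replicate 1 with glutamine 23164 genes were tested. The fit was run on simulated counts with a dispersion, the spread between libraries, of 0.0083, as found without replicate 1 with glutamine. With all 6 libraries the common dispersion was 0.0408, so the simulation does not check the fit in that setting. Promoter sequences are from RefSeq, GRCh38.p14.

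The members, lists and rules were chosen with earlier results of these data known. By the rule for named genes, all members are accounted for, those it lists have their library values printed, and from the other lists up to 4 genes per direction without overlap and with at least 50 counts. A gene that this rule names is not reported here. Alternatives covered scaling, filters, tests, thresholds, the replicate block and each library left out.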

Additional observations from a re-analysis of the deposited data

How the results depend on the processing

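With all libraries, 0 members were called under DESeq2 size factors, upper quartile scaling, library size only, either filter, limma-voom, limma-trend, edgeR's legacy and robust settings and the replicate block. The count was 4 with the DESeq2 test and 2 at an adjusted p under 0.1. Over all genes it was 1, and 0 under upper quartile scaling, library size only, limma-voom and edgeR's legacy setting, 2 with no filter and with limma-trend, 3065 with the DESeq2 test and 3285 at an adjusted p under 0.1. The cause was not tested.

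With each library left out in turn, there were from 0 to 21 called members and from 0 to 9573 called genes, the highest without replicate 1 with glutamine. With the first replicate lacking glutamine left out, 17 genes and 0 members were called. In the 5 libraries without replicate 1 with glutamine, scalings added after seeing the data called 20 members with DESeq2 size factors, 21 with upper quartile scaling and 21 with library size only. The members with replicate 1 lowest numbered 17 to 20 across the scalings, against 9.9% to 15.4% of all genes. Upper quartile scaling moved the median log2 fold change of all genes to -0.043.

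The deviations of same-numbered samples from their group means correlated at -0.021, 0 and 0.028, and the numbers gave no sign of pairing. With the replicate block 0 genes and 0 members were called.

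The difference between HIF targets and enzymes ran from -0.328 to -0.129 with 1 library left out. The families with a constant leading isoenzyme were 9, and 8 with the longest transcript.

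Of 396 values of single members under the alternatives that kept all libraries, 387 kept their sign and their call or lack of one, 4 became called and 5 reversed. The reversals were HIF1A at -0.006 under upper quartile scaling, SLC2A1 at 0.002 under limma-trend, and SLC16A3 at 0.071 under limma-voom, 0.07 under limma-trend and 0.05 with the replicate block. With 1 library left out, 172 of 216 values kept both, 21 became called and 23 reversed. The ranges that crossed 0 were -0.069 to 0.036 for ALDOC, -0.057 to 0.164 for TPI1, -0.284 to 0.036 for PGK1, -0.177 to 0.082 for PGAM1, -0.309 to 0.007 for ENO1, -0.089 to 0.032 for PKM, -0.149 to 0.04 for LDHB, -0.118 to 0.223 for PFKFB3, -0.362 to 0.086 for SLC2A1, -0.342 to 0.177 for SLC16A3, -0.022 to 0.078 for HIF1A, -0.26 to 0.274 for CA9 and -0.009 to 0.146 for NDRG1.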
